A study of Homo sapiens with 3 samples.

Results

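The genes described here set the pace of the G1 phase of the cell cycle, namely the D-type cyclins CCND1, CCND2 and CCND3, the E-type cyclins CCNE1 and CCNE2, the kinase CDK6, the INK4 inhibitors CDKN2A and CDKN2B, the CIP/KIP inhibitor CDKN1B and the pocket protein RB1. They were chosen by name for these roles, and they made up 10 of the 20494 genes whose mRNA values were used. The circular RNAs (circRNAs, closed loops made by back-splicing of exons) that the deposited table assigns to these host genes made up 35 of 92509. Cells of 3 human lines were grown in DMEM with 10% fetal bovine serum and with no agent under study, and their total RNA was sequenced on an Illumina HiSeq after removal of ribosomal RNA (RiboZero). BEAS-2B, labelled normal lung, is a bronchial epithelial line immortalized with an adenovirus/SV40 hybrid virus, whose large T antigen is known to bind the RB1 protein and its relatives. A549 and HCC827 both come from lung adenocarcinoma, the former with wild-type and the latter with mutated EGFR, which encodes a growth factor receptor. Each line was 1 library, so no value carries a replicate error and no test was run. The tumour lines were both set against the same BEAS-2B library, so these comparisons are not independent of each other.

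In G1, growth signals raise the D-type cyclins, which activate CDK4 and CDK6 to phosphorylate RB1. Phosphorylated RB1 releases the E2F transcription factors, which switch on the E-type cyclins and the genes of DNA replication. The INK4 proteins, p16 from CDKN2A and p15 from CDKN2B, bind CDK4 and CDK6 and keep them from the D-type cyclins, while p27 from CDKN1B restrains CDK2 with the E-type cyclins. In lung adenocarcinoma the INK4 genes are often lost or silenced, and CCND1 is often abundant.

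The mRNA values were FPKM (fragment counts set against transcript length and library size), a unit that allows levels to be compared between genes. Nearly all low values stood at exactly 1 FPKM, called the floor here, and between 8812 and 8926 genes per line were at or below it. A value at the floor does not show that a transcript was absent. FPKM and TPM keep no counts, so the depth behind each value is unknown. The circRNA profile of HCC827 stood apart, with only 4937 circRNAs above 0 where BEAS-2B had 42706 and A549 had 43950, which touches every circRNA value of HCC827 below. Among the markers of cell identity, EPCAM and CDH1 were at the floor in BEAS-2B, although KRT8, a keratin of simple epithelia, was at 282 FPKM there, 1419 FPKM in A549 and 91.6 FPKM in HCC827. KRT19, another such keratin, was also higher in A549 than in BEAS-2B but was highest in HCC827, at 1.84, 28.7 and 697 FPKM. KRT18 took the same order as KRT19, at 1.61, 5.65 and 9.001 FPKM. The mesenchymal genes were highest in BEAS-2B and lowest in HCC827, with VIM, vimentin, at 411, 173 and 1.47 FPKM, CDH2 at 31.3, 5.29 and 1 FPKM and ZEB1 at 5.95, 5.71 and 1 FPKM. The lines thus differed widely in epithelial and mesenchymal markers, and the part of this in the values below was not tested. The lung transcription factor NKX2-1 was above the floor only in HCC827 (9.92 FPKM), and the lung genes SFTPB, SFTPC and SCGB1A1 were at the floor in all 3 lines. Of the leukocyte list, PTPRC and CD3E were at the floor in all 3 lines, while CD68, a lysosomal protein best known from macrophages, was at 29.1 FPKM in HCC827, over 2-fold above the 4.09 of BEAS-2B and the 5.98 of A549. Of the endothelial list, VWF was at the floor in all 3 lines, and CDH5 was at 1.36 FPKM in BEAS-2B and at the floor in the tumour lines.

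The 10 G1 regulators did not move as 1 group. CCND1 was several-fold higher in both tumour lines than in BEAS-2B, CCND3 was high in A549 only, and RB1 and CCNE2 were lower in both tumour lines. CDKN2A, among the most abundant mRNAs of BEAS-2B and HCC827, was listed at the floor in A549 together with CDKN2B. CCND2 and CDKN1B were listed at the floor in all 3 lines and entered no comparison.

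**Figure D1:**
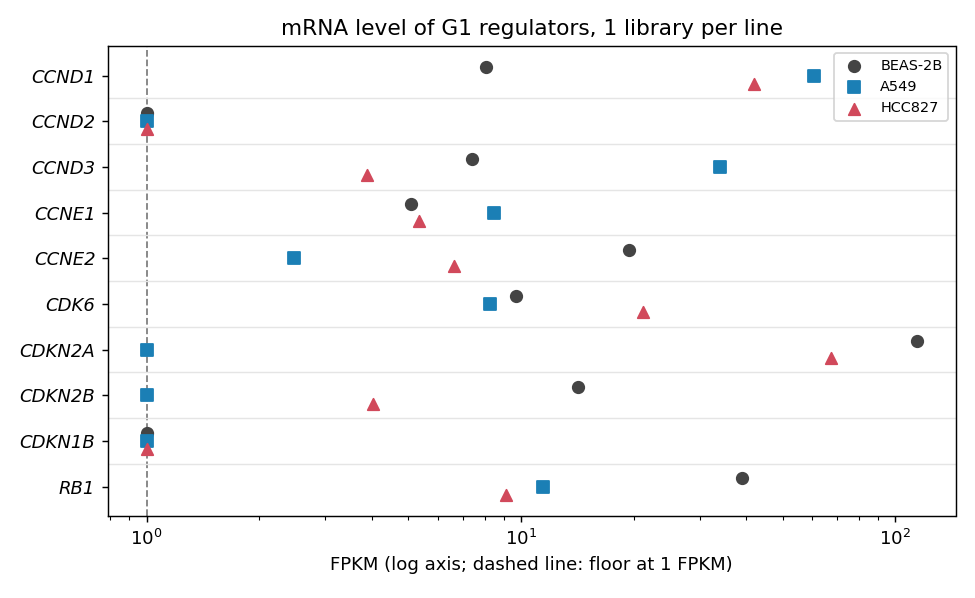
mRNA level of each of the 10 genes (FPKM, log axis) in BEAS-2B (circles), A549 (squares) and HCC827 (triangles), 1 library per line, with the floor at 1 FPKM as a dashed line. CDKN2A is at 114 FPKM in BEAS-2B, at 67.3 in HCC827 and at the floor in A549, while CCND1 is at 60.6 FPKM in A549, 42.0 in HCC827 and 8.06 in BEAS-2B.

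CCND1, cyclin D1, stood at 8.06 FPKM in BEAS-2B against 60.6 in A549 and 42.0 in HCC827. Relative to BEAS-2B the FPKM ratio was 7.51 for A549 and 5.21 for HCC827, and the corresponding differences of log2(FPKM + 1) were 2.76 and 2.25. Between the tumour lines the ratio of HCC827 to A549 was 0.694. In A549 its level was at or above that of 97.5% of the genes, in HCC827 of 96.2% and in BEAS-2B of 73.7%, so that it lay near the top in both tumour lines. CCND3, cyclin D3, which takes the same kinase partners, stood at 7.39 FPKM in BEAS-2B against 34.1 in A549 and 3.88 in HCC827. Its ratio to BEAS-2B came to 4.61 for A549 and 0.524 for HCC827, and the ratio of HCC827 to A549 was 0.114, the lowest of any G1 regulator between the tumour lines. CCND2, cyclin D2, was listed at the floor in all 3 lines.

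The make-up of the D-type cyclins therefore differed between the lines. Their summed mRNA above the floor was 15.5 FPKM in BEAS-2B against 94.7 in A549 and 45.9 in HCC827. CCND1 made up 52.2% of this sum in BEAS-2B against 64.0% in A549 and 91.6% in HCC827. CCND1 exceeded CCND3 by a ratio of 1.09 in BEAS-2B, against 1.78 in A549 and 10.8 in HCC827. BEAS-2B thus held nearly equal levels of both cyclins, and HCC827 held almost only CCND1.

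CCNE1, cyclin E1, activates CDK2 at the entry into S phase, and it was the steadiest cyclin above the floor, with 5.10 FPKM in BEAS-2B against 8.45 in A549 and 5.35 in HCC827. The largest of its differences, the A549 to BEAS-2B ratio of 1.66, stayed within 2-fold of FPKM + 1. CCNE2, cyclin E2, which shares this role, stood at 19.5 FPKM in BEAS-2B against 2.48 in A549 and 6.63 in HCC827. Its ratio to BEAS-2B came to 0.127 for A549 and 0.341 for HCC827, and HCC827 was at 2.68 times A549. In BEAS-2B, CCNE1 made up 20.8% of the summed E-type cyclin mRNA of 24.6 FPKM, in A549 77.3% of 10.9 FPKM and in HCC827 44.7% of 11.99 FPKM. The order of the 2 genes was thus opposite in A549 and BEAS-2B.

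CDK6, the partner of the D-type cyclins, stood at 9.73 FPKM in BEAS-2B against 8.27 in A549 and 21.2 in HCC827. A549 and BEAS-2B lay close together, with a difference of log2(FPKM + 1) of -0.21 that became 0.01 when the libraries were scaled by their median of ratios, so no direction is given. HCC827 was at 2.18 times BEAS-2B and 2.57 times A549. CDK4, the sister kinase, was at 48.1 FPKM in BEAS-2B against 38.6 in A549 and 677 in HCC827. CDK6 therefore made up 16.8% of the summed CDK4 and CDK6 mRNA in BEAS-2B against 17.6% in A549 and 3.04% in HCC827, and the share was lowest in the line with the highest CDK6 level.

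CDKN2A was the most abundant of the 10 mRNAs in BEAS-2B, at 114 FPKM, and in HCC827, at 67.3 FPKM, and it was listed at the floor of 1 FPKM in A549. In BEAS-2B it was at or above 98.6% of all genes and in HCC827 at or above 97.8%. The log2(FPKM + 1) difference of A549 to BEAS-2B, -5.85, was the 13th lowest of the 12952 genes compared, and that of HCC827 to A549, 5.09, was the 29th highest of 13100. Since 1 value of each pair was at the floor, these differences depend on that floor, and no fold is given. The symbol covers transcripts of both p16INK4a and the separate protein ARF, which the gene-level values do not tell apart. CDKN2B, its neighbour on chromosome 9, stood at 14.2 FPKM in BEAS-2B, at the floor in A549 and at 4.03 FPKM in HCC827, and its HCC827 to BEAS-2B ratio was 0.283. The antisense gene CDKN2B-AS1 runs across this locus, and since no source states that counting used the strand, reads of both cannot be told apart.

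CDKN2A and CDKN2B together came to 71.4 FPKM in HCC827 and 128 in BEAS-2B, with both listed at the floor in A549. A549 is known from other work to lack both copies of CDKN2A, but DNA was not analysed here, and the part of gene copies in these values was not tested. Of the genes around this pair, MTAP, an enzyme of methionine salvage, was at 7.97 FPKM in BEAS-2B against 2.61 in A549 and 27.1 in HCC827. IFNE, an interferon gene on the same side, was at 2.10 FPKM, 2.30 FPKM and 1.08 FPKM in the same order. DMRTA1, on the CDKN2B side, was at the floor in BEAS-2B and A549 and at 1.36 FPKM in HCC827, and ELAVL2 was at 2.92 FPKM in BEAS-2B and at the floor in both tumour lines. MTAP was thus lowest in A549 as well, but above the floor.

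The starts of both INK4 genes are printed because these genes were at the floor together in A549. The sequences are from RefSeq on GRCh38.p14, all on the minus strand and written 5′ to 3′, from 250 bases before to 50 bases after each start, with GGGCGG, the core of a GC box, in capitals on either strand (CCGCCC on the other). The first CDKN2A window lies at chr9:21995275-21995574, the second at chr9:21974808-21975107, and the CDKN2B window at chr9:22009256-22009555.
CDKN2A, first start: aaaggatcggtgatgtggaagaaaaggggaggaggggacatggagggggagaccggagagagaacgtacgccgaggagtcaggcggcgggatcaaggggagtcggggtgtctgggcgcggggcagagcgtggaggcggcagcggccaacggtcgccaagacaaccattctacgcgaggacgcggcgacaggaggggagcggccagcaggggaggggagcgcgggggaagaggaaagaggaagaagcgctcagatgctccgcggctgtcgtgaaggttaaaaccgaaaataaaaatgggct
CDKN2A, second start: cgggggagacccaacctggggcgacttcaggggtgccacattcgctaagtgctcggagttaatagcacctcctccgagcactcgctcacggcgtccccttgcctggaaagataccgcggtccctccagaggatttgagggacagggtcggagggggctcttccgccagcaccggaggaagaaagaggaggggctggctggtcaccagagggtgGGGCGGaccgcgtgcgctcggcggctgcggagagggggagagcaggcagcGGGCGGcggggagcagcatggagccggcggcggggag
CDKN2B: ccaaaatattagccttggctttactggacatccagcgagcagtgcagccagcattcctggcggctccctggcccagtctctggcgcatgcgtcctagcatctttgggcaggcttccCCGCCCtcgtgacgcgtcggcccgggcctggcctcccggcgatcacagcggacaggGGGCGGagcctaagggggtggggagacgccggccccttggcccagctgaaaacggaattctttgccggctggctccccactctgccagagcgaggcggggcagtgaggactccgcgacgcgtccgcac

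GGGCGG was found at 0 places in the first CDKN2A window, 2 in the second and 2 in that of CDKN2B, and 45.0% of the 35116 promoter windows of this length hold it. The GC content was 63.3%, 69.0% and 67.3% in the same order, against a median of 58.7%, and the CG dinucleotides numbered 28, 26 and 25 against a median of 14. These windows are thus richer in CG than the median window, and the mRNA data do not bear on their methylation. The letters TTTCCCGC, TTTCGCGC, TTTGCCGC or TTTGGCGC, forms of the E2F site, were found in 3.31% of all windows. They were on neither strand in any of the 11 windows available for 7 of the 10 genes. Sites this rare may be missing from 11 windows of any genes, so this is no result about these genes. No window was available for CCND1, CCND2 and CCNE2, so these genes were not searched. The single RB1 window, at chr13:48476200-48476499, had a GC content of 38.3% and 0 CG dinucleotides. Whether it holds the main start of RB1 was not tested, so the main RB1 promoter is not taken as searched.

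CDKN1B, which encodes p27, was listed at the floor in all 3 lines. Its circRNA, given below, was nonetheless at 24.3 TPM in BEAS-2B, so a floor value does not mean that no RNA of this locus was measured. RB1, the main substrate of the D-type cyclin kinases, stood at 38.8 FPKM in BEAS-2B against 11.4 in A549 and 9.12 in HCC827. Its ratio to BEAS-2B came to 0.294 for A549 and 0.235 for HCC827, while the tumour lines lay close to each other with an HCC827 to A549 ratio of 0.798.

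Genes above the floor in either line of a pair were compared, and 8 of the 10 genes could be compared in each pair. A 2-fold difference of FPKM + 1 counted as higher or lower. From BEAS-2B to A549, CCND1 and CCND3 were higher and CCNE2, CDKN2A, CDKN2B and RB1 were lower, while 10.5% of the 12952 genes compared were higher and 15.3% lower. The median difference of log2(FPKM + 1) was -0.95 over the 8 genes and -0.16 over all genes compared. From BEAS-2B to HCC827, CCND1 and CDK6 were higher and CCNE2, CDKN2B and RB1 were lower, against 12.9% higher and 16.6% lower of 13138 genes, with medians of -0.77 and -0.14. From A549 to HCC827, CCNE2, CDK6, CDKN2A and CDKN2B were higher and CCND3 was lower, against 13.8% higher and 12.4% lower of 13100 genes, with medians of 0.42 and 0.02. In each pair more of the 8 genes passed the fold than the share of all genes would give, but with 1 library per line this describes the libraries, and the genes were chosen with earlier results of these data known.

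Scaling by the median of ratios moved the median of all genes to 0.03 in A549 against BEAS-2B and to 0.04 in HCC827 against BEAS-2B. The shares of all genes then were 13.6% higher and 10.4% lower in A549, and 15.9% higher and 12.4% lower in HCC827. The counts of G1 regulators higher and lower stayed as given in all 3 pairs under this scaling.

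**Figure D2:**
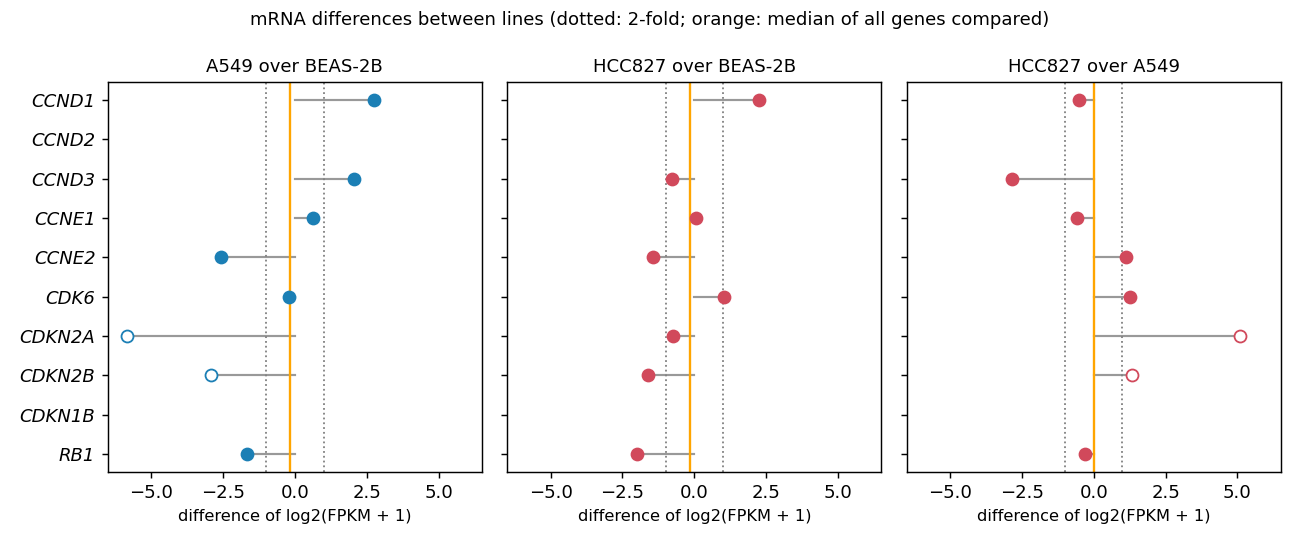
Difference of log2(FPKM + 1) of each gene between each pair of lines, with 2-fold differences dotted, the median of all genes compared in orange, and open circles where 1 value of the pair was at the floor. CCND1 is at 2.76 and 2.25 against BEAS-2B, RB1 at -1.68 and -1.98, and CCND3 is at 2.06 in A549 but -0.78 in HCC827.

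When the log2(FPKM + 1) values were centred over the 3 lines, CCNE2 and CDKN2B lay nearest to each other of all genes above the floor in a line, at a distance of 0.26. Both were highest in BEAS-2B, lowest in A549 and intermediate in HCC827. CDKN2B was at the floor in A549, so the distance between them depends on that floor. CCNE2 and RB1 followed at 1.02. With only 3 lines such likeness is a description, and the genes lie on different chromosomes.

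Neighbours on the chromosome were read for all 10 genes by their RefSeq order, up to 3 on each side. Of 54 such neighbours, 15 passed 2-fold in at least 1 pair of lines. At the floor in all 3 lines were 13 of the 54, against 32.7% of all 20494 genes. The share of all genes past 2-fold in at least 1 pair was not computed, so the 15 are not read as a result about neighbours. Beside CCND1, MYEOV, a gene known from myeloma, was at 14.1 FPKM in A549 and at the floor in the other lines, and the growth factor genes FGF19, FGF4 and FGF3 were at the floor throughout. RAD51AP1, a factor of homologous recombination beside CCND2, was at 15.4 FPKM in BEAS-2B against 12.98 in A549 and 4.09 in HCC827. Beside CCND3, C6orf132 was at 7.13 FPKM in BEAS-2B, at the floor in A549 and at 5.96 FPKM in HCC827, so it was lowest where CCND3 was highest.

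Beside CCNE1, URI1, a prefoldin-like factor, was at 12.7 FPKM in BEAS-2B against 55.6 in A549 and 49.7 in HCC827, while CCNE1 itself stayed within 2-fold of FPKM + 1. POP4, a subunit of RNase P on the other side of CCNE1, was at 27.7, 45.9 and 12.9 FPKM in the same order. The neighbours of CCNE2 went different ways. TP53INP1, a gene induced by p53, was at 6.62, 2.80 and 1.49 FPKM and was lower in both tumour lines, as CCNE2 was. INTS8, a subunit of the Integrator complex, was at 14.4, 24.1 and 45.5 FPKM and passed 2-fold in HCC827 only. ESRP1, a splicing factor of epithelial cells, was at 49.3 FPKM in HCC827 and at the floor in the other lines, and PLEKHF2 was at 5.36, 2.27 and 9.85 FPKM.

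Beside CDK6, SAMD9, an interferon-induced gene, was at 18.4 FPKM in BEAS-2B against 3.98 in A549 and 24.8 in HCC827. Its relative SAMD9L was at 2.44 FPKM in BEAS-2B, at the floor in A549 and at 4.26 FPKM in HCC827. Beside CDKN1B, which was at the floor in each line, GPRC5A, a retinoic acid-induced receptor, was at 43.2, 19.8 and 76.2 FPKM, and APOLD1 was at 6.53 FPKM in BEAS-2B, at the floor in A549 and at 7.59 FPKM in HCC827. Beside RB1, ITM2B, which encodes a membrane protein, was at 16.9, 13.1 and 20.8 FPKM, and MED4, a Mediator subunit, at 17.7, 11.5 and 7.71 FPKM. RB1 was thus over 2-fold lower in both tumour lines, while ITM2B stayed within 2-fold and MED4 passed it in HCC827.

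The genes around these regulators were read from 6 lists of 64 genes in all. In A549 against BEAS-2B, 4 of the 61 that could be compared were higher (6.56%, against 10.5% of all genes) and 14 lower (23.0%, against 15.3%), with a median difference of log2(FPKM + 1) of -0.51. In HCC827 against BEAS-2B, 4 of 62 were higher (6.45%, against 12.9%) and 22 lower (35.5%, against 16.6%), with a median of -0.72. Between the tumour lines 4 of 61 were higher in HCC827 (6.56%, against 13.8%) and 5 lower (8.20%, against 12.4%), with a median of -0.31. Scaling by the median of ratios brought the lower genes of A549 to 8 of 61 (13.1%), near the 10.4% of all genes under this scaling, and those of HCC827 to 15 of 62 (24.2%, against 12.4%). The counts of single lists below are read against the same shares of all genes.

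CDK2, the kinase of the E-type cyclins, was at 65.9 FPKM in BEAS-2B against 20.3 in A549 and 14.3 in HCC827. In its list of G1 kinases, CDK-activating kinase and the phosphatase CDC25A, 2 of 7 genes were lower in A549, CDK2 and CDK3, and 2 in HCC827, CDK2 and CDC25A, while CDK4 was higher in HCC827. Of the other INK4 and CIP/KIP inhibitors, CDKN2C, which encodes p18, was at 37.4 FPKM in BEAS-2B against 10.95 in A549 and 2.53 in HCC827. CDKN2D, which encodes p19, was at 5.43, 2.11 and 1.29 FPKM in the same order. CDKN1A, which encodes the p53 target p21, was at 12.9 FPKM in BEAS-2B against 15.1 in A549 and at the floor in HCC827, and CDKN1C was at the floor in all 3 lines. The 4 INK4 mRNAs together came to 171 FPKM in BEAS-2B against 13.1 in A549 and 75.2 in HCC827, so what A549 held above the floor was CDKN2C and CDKN2D.

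Of 12 pocket protein, E2F and DP genes, 2 were higher and 4 lower in A549, and 0 were higher and 4 lower in HCC827, against BEAS-2B. RBL1, the pocket protein p107, was at 16.0 FPKM in BEAS-2B against 7.42 in A549 and 3.81 in HCC827. E2F1, an activator released from RB1, was at 26.97, 11.8 and 10.5 FPKM, and E2F7, a repressor of the family, at 20.4, 7.49 and 7.64 FPKM. These were lower in both tumour lines, as was the related repressor E2F8 in HCC827. TFDP1, the DNA-binding partner of the E2F proteins, was at 42.0 FPKM in BEAS-2B against 14.6 in A549 and 21.6 in HCC827, and it passed the 2-fold difference in A549. E2F5, a partner of the pocket proteins in quiescent cells, was instead higher in A549, at 7.07 FPKM against 2.02 FPKM in BEAS-2B, and so was E2F6, a repressor that does not bind pocket proteins, at 4.55 FPKM against 1.37 FPKM.

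Among 16 E2F target genes of S phase entry, 2 of the 14 compared were lower in A549 than in BEAS-2B, TK1 and CCNA2, and none was higher. In HCC827, 8 of 15 were lower and 1 higher, with a median difference of log2(FPKM + 1) of -1.08. CCNA2, cyclin A2, was at 96.3 FPKM in BEAS-2B against 39.0 in A549 and 29.1 in HCC827. TK1, thymidine kinase, was at 69.9, 30.0 and 22.8 FPKM in the same order. Both were lower in each tumour line than in BEAS-2B. POLA1, the catalytic subunit of DNA polymerase alpha, was at 19.0 FPKM in BEAS-2B against 14.4 in A549 and 5.13 in HCC827. MCM7, a subunit of the replicative helicase, was the gene that was higher, at 19.3 FPKM in HCC827 and listed at the floor in BEAS-2B and A549 although dividing cells need it, which again shows the limit of floor values.

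Of 11 genes of the ubiquitin ligases that degrade G1 cyclins and p27, 1 was lower in A549 and 4 in HCC827 than in BEAS-2B. SKP2, which directs the degradation of p27, was at 15.0 FPKM in BEAS-2B against 4.18 in A549 and 6.95 in HCC827, and it was the gene lower in both, joined in HCC827 by SKP1, FBXO31 and RNF123. The receptors of cyclin D degradation AMBRA1 and FBXO31 were at 3.66 and 5.93 FPKM in BEAS-2B, 2.04 and 5.22 FPKM in A549, and 5.196 and 2.25 FPKM in HCC827. The median of this list, -0.20 in A549 and -0.17 in HCC827, lay near that of all genes.

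Of 14 transcriptional regulators of CDKN2A and CDKN2B, 2 were higher and 3 lower in A549, and 2 were higher and 1 lower in HCC827, against BEAS-2B, which is near the shares of all genes. ETS1, an activator of the p16 promoter, was at 29.1 FPKM in BEAS-2B against 2.71 in A549 and 22.2 in HCC827, so that it was low in the line in which CDKN2A was at the floor. ID1, which opposes ETS factors there, was at 79.3 FPKM in BEAS-2B against 251 in A549 and 287 in HCC827, high also in HCC827, where CDKN2A was abundant. Of the Polycomb genes, CBX7 was at 4.90 FPKM in BEAS-2B, at the floor in A549 and at 2.16 FPKM in HCC827, and CBX8 was at the floor in BEAS-2B, at 9.57 FPKM in A549 and at 2.77 FPKM in HCC827. ZBTB17 was the other gene lower in A549, while in HCC827 MYC was the other higher gene and SUZ12 the lower one. The part of these regulators in the INK4 levels was not tested.

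**Figure D3:**
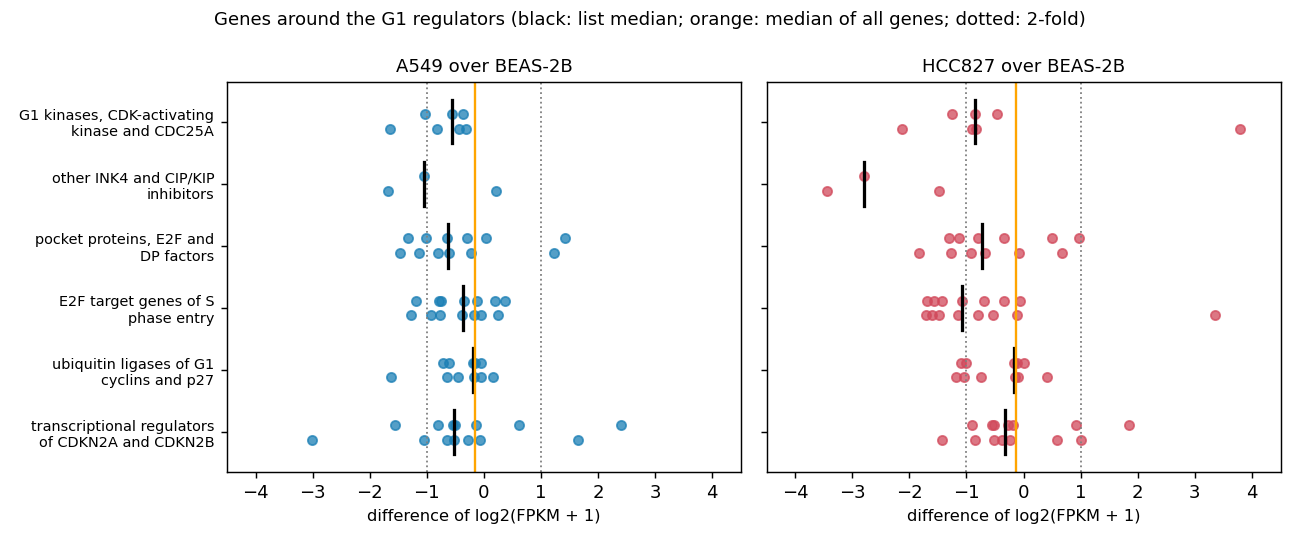
Difference of log2(FPKM + 1) of A549 and of HCC827 to BEAS-2B for each gene of 6 lists around the G1 regulators (points), with each list's median in black, the median of all genes compared in orange and 2-fold differences dotted. The median of the E2F target genes is -0.37 in A549 and -1.08 in HCC827, and that of the other INK4 and CIP/KIP inhibitors is -1.05 and -2.80.

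The circRNA values were TPM (transcript abundance scaled to a fixed sum per library). The table lists 10 circRNAs for CDK6, 7 for RB1, 6 for CCND2, 4 each for CCND1 and CCND3, 2 for CCNE2, and 1 each for CCNE1 and CDKN1B, and 0 of those analysed were assigned to CDKN2A or CDKN2B. Of these 35, 21 were above 0 in at least 1 line, as were 50036 of all 92509. BEAS-2B and A549 each had 16 above 5 TPM and HCC827 had 4, against 23.4%, 22.7% and 4.65% of all 92509 circRNAs. Positions below are on hg19 as the table gives them, and no source states whether the start is counted from 0 or from 1. CircRNAs of 1 host overlap and share sequence, and the part of the linear host RNA in their values was not tested.

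**Figure D4:**
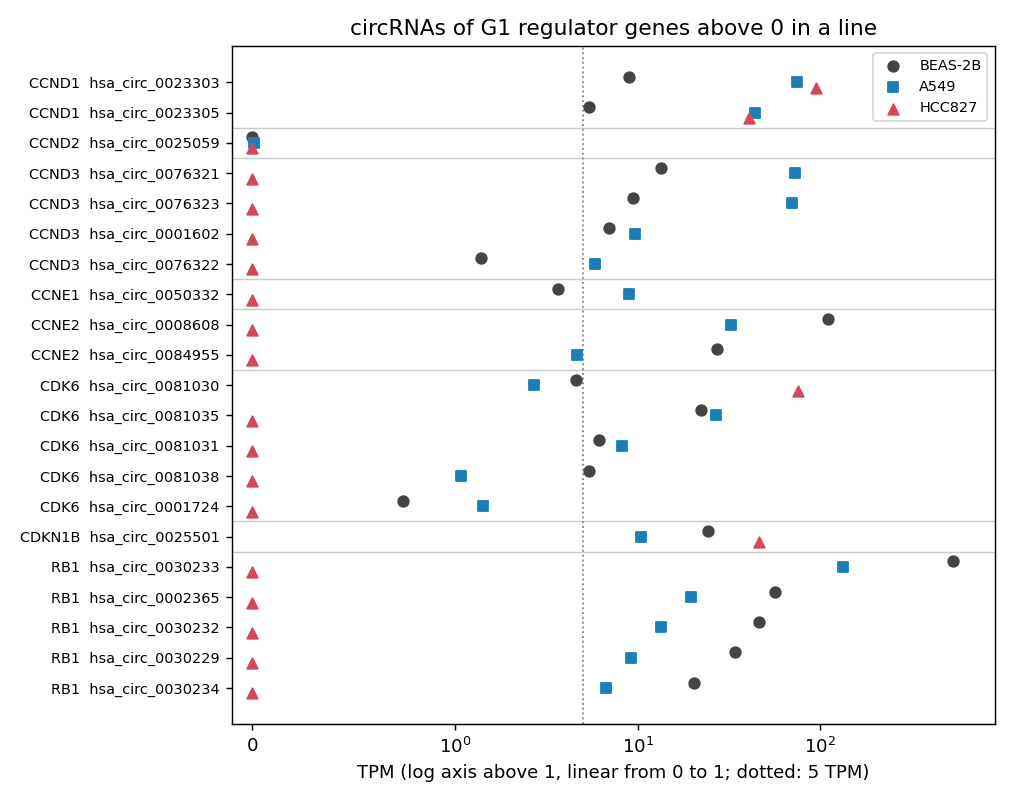
TPM of the 21 circRNAs of these host genes that were above 0 in a line, in BEAS-2B (circles), A549 (squares) and HCC827 (triangles), 1 library per line, on an axis that is linear from 0 to 1 and logarithmic above, with 5 TPM dotted. In HCC827 the 2 circRNAs of CCND1 and 1 each of CDK6 and CDKN1B are above 0, and the other 17 are at 0.

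RB1 gave the most abundant circRNAs of the group, with a sum of 690 TPM in BEAS-2B against 181 in A549 and 0 in HCC827. Most of it was hsa_circ_0030233, at chr13:49033823-49033969 on the plus strand, which spans 146 bases and stood at 532 TPM in BEAS-2B against 132 in A549 and 0 in HCC827. hsa_circ_0030232 ends at the same base as this circRNA but begins far upstream, at chr13:48941629-49033969, and was at 46.2, 13.4 and 0 TPM. hsa_circ_0002365 (chr13:48916734-48923159) was at 56.7, 19.6 and 0 TPM, and hsa_circ_0030229, which has the same start and ends at 48955579, at 34.2, 9.19 and 0 TPM. hsa_circ_0030234 (chr13:49039340-49056026) was at 20.3, 6.72 and 0 TPM. The A549 to BEAS-2B ratios of these 5 circRNAs ran from 0.248 to 0.346, around the mRNA ratio of 0.294.

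CCND1 gave the only circRNAs of a cyclin that were above 0 in HCC827. hsa_circ_0023303, at chr11:69455872-69458759 on the plus strand, was at 8.97 TPM in BEAS-2B against 74.5 in A549 and 95.3 in HCC827, ratios to BEAS-2B of 8.30 and 10.6. hsa_circ_0023305, which overlaps it at chr11:69457798-69469242, was at 5.41 TPM in BEAS-2B against 43.9 in A549 and 40.8 in HCC827, ratios of 8.11 and 7.55. High values in HCC827 were common, since of all circRNAs above 5 TPM in both lines of a pair 63.5% were 2-fold higher there than in BEAS-2B, with a median log2 difference of 1.53, and 66.8% higher than in A549, with a median of 1.72. Scaled by the median of ratios over circRNAs, the HCC827 to BEAS-2B ratios came to 3.76 and 2.67, the A549 to BEAS-2B ratios to 9.16 and 8.95, and those of HCC827 to A549 to 0.411 and 0.299. Both circRNAs were thus higher in both tumour lines under either scaling, as was the mRNA, and the other 2 listed were at 0 in all 3 lines.

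CCND3 circRNAs lie on the minus strand of chromosome 6 and summed to 31.1 TPM in BEAS-2B against 158 in A549 and 0 in HCC827. hsa_circ_0076321 (chr6:41902670-41908323) was at 13.4 TPM in BEAS-2B but 72.3 in A549, and hsa_circ_0076323 at 9.41 and 69.8 TPM. hsa_circ_0001602 (chr6:42012350-42012461) was at 6.94 and 9.71 TPM, and hsa_circ_0076322 at 1.39 and 5.84 TPM. The A549 to BEAS-2B ratio was thus 5.40 and 7.41 for the pair with the highest values but 1.40 for hsa_circ_0001602, against 4.61 for the mRNA. Of the 6 circRNAs listed for CCND2, only hsa_circ_0025059 was above 0, at 0.00854 TPM in A549.

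The circRNAs of the E-type cyclins differed between BEAS-2B and A549 in the same directions as their mRNAs. hsa_circ_0050332 of CCNE1, at chr19:30311608-30315215 on the plus strand, was at 3.65 TPM in BEAS-2B against 8.997 in A549 and 0 in HCC827, an A549 to BEAS-2B ratio of 2.46. Of CCNE2, hsa_circ_0008608 was at 110 TPM in BEAS-2B against 32.6 in A549 and 0 in HCC827, and hsa_circ_0084955 at 27.05, 4.67 and 0 TPM. Their A549 to BEAS-2B ratios were 0.296 and 0.173.

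CDK6 had circRNAs that differed in opposite directions. hsa_circ_0081030, at chr7:92234234-92300849 on the minus strand, was at 4.59 TPM in BEAS-2B against 2.70 in A549 and 75.7 in HCC827, which is 16.5 times BEAS-2B and 28.0 times A549, or 5.84 and 8.99 times when scaled by the median of ratios. hsa_circ_0081031 has the same lower end but reaches to 92463231, and it was at 6.13 TPM in BEAS-2B against 8.16 in A549 and 0 in HCC827. hsa_circ_0081035 (chr7:92300739-92404145), which shares an edge with the first, was at 22.3, 26.9 and 0 TPM. hsa_circ_0081038 was at 5.42, 1.08 and 0 TPM, and hsa_circ_0001724 at 0.744, 1.43 and 0 TPM. In HCC827 all CDK6 signal above 0 therefore lay in 1 circRNA, where the mRNA was also highest, while in the other lines hsa_circ_0081035 led. Of all circRNAs above 5 TPM in BEAS-2B and A549, 88.0% were at 0 in HCC827. The 0 values are thus no result about CDK6.

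CDKN1B had 1 circRNA, hsa_circ_0025501, at chr12:12870301-12875305 on the plus strand. It was at 24.3 TPM in BEAS-2B against 10.5 in A549 and 45.8 in HCC827. It was therefore above 5 TPM in every line, while the mRNA was listed at the floor in each. This circRNA spans 5004 bases, and the part of linear host RNA in its values was not tested. Its ratio to BEAS-2B came to 0.431 for A549 and 1.89 for HCC827, and HCC827 was at 4.38 times A549. With scaling by the median of ratios, these ratios became 0.476, 0.669 and 1.41, so that the direction between HCC827 and BEAS-2B changed and HCC827 was no longer 2-fold above A549.

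Of the 14 circRNAs that passed 5 TPM in BEAS-2B and also in A549, 11 were at 0 in HCC827, and the same held for 88.0% of the 17133 such circRNAs in the whole table. A value of 0 in HCC827 is thus no result about these genes. Where 5 TPM was passed in at least 1 line of a pair, 6 of 18 circRNAs were higher and 9 lower by 2-fold of TPM + 1 in A549 than in BEAS-2B, against 16.7% and 20.6% of the 25512 compared. In HCC827 against BEAS-2B, 3 of 17 were higher and 13 lower, against 14.6% and 82.3%, and against A549, 2 of 17 were higher and 13 lower, against 15.4% and 81.7%. Under scaling by the median of ratios, the counts against BEAS-2B stayed as given, and those of HCC827 against A549 became 1 higher and 15 lower. All 13 that were lower in HCC827 than in BEAS-2B were at 0 there.

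In A549 against BEAS-2B, 17 circRNAs of 6 hosts could be set beside a ratio of their host mRNA. The ratios of 15 lay on the same side of 1 as that of the host, and the exceptions were hsa_circ_0081035 and hsa_circ_0081031 of CDK6, whose mRNA ratio of 0.850 changed sides with the scaling. The circRNAs of 1 host share their source, so the hosts are the units, and 6 hosts in 1 pair of libraries give a description. The same count over all circRNAs was not made, so 15 of 17 is not read as a trait of these genes.

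**Figure D5:**
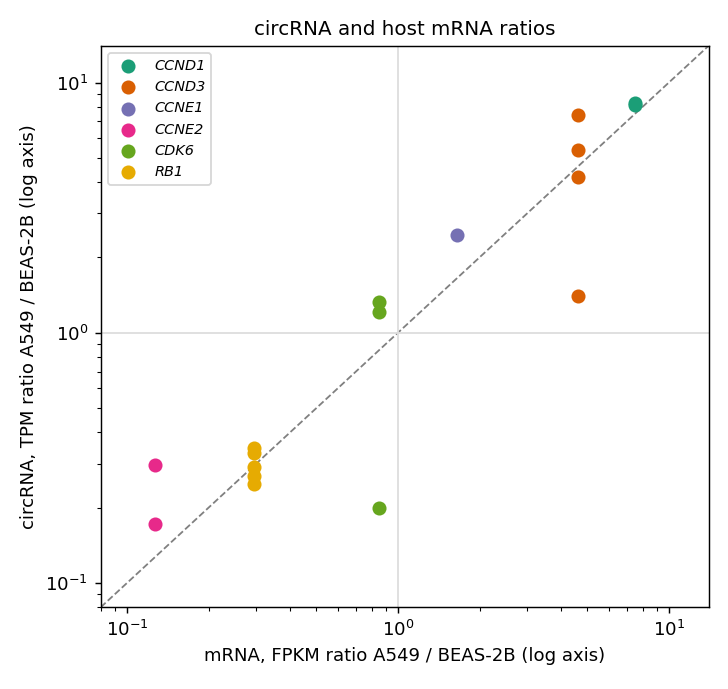
A549 to BEAS-2B ratio of TPM for 17 circRNAs against the ratio of FPKM of their host mRNA (both log axes, 1 point per circRNA, coloured by host), with equal ratios dashed. The RB1 points lie between 0.248 and 0.346 beside an mRNA ratio of 0.294, those of CCND1 at 8.11 and 8.30 beside 7.51, and those of CDK6 spread from 0.199 to 1.33 beside 0.850.

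The deposited data also hold lists of predicted targets of 9 microRNAs (miRNAs), short RNAs that pair with mRNAs chiefly through bases 2 to 8, the seed. The mature sequences of the 6 miRNAs whose lists name a G1 regulator are given from RefSeq, 5′ to 3′, with the seed in capitals, because target prediction commonly starts from the seed.
hsa-miR-1252-5p: aGAAGGAAauugaauucauuua
hsa-miR-1299: uUCUGGAAuucugugugaggga
hsa-miR-767-5p: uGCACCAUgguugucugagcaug
hsa-miR-140-3p: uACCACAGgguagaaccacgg
hsa-miR-942-5p: uCUUCUCUguuuuggccaugug
hsa-miR-889-3p: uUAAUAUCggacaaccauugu

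No seed was shared between these 6. CDK6 was named in 5 of the 9 lists, those of hsa-miR-1252-5p, hsa-miR-1299, hsa-miR-767-5p, hsa-miR-140-3p and hsa-miR-889-3p, and 2.28% of the 20494 genes were named in at least 5. CCND1 was named in 3, those of hsa-miR-1299, hsa-miR-942-5p and hsa-miR-889-3p, and CCND2 in 3, those of hsa-miR-1252-5p, hsa-miR-1299 and hsa-miR-767-5p, as were 17.2% of the genes in at least 3. CCNE2, CDKN2B and RB1 were named in 2 lists each and CCND3 in 1, while CCNE1, CDKN2A and CDKN1B were in none. Since 56.8% of all genes were in at least 1 list, being named is common. The list of hsa-miR-140-3p was the shortest of these 6, with 2.40% of the genes, and CDK6 was the only G1 regulator in it. The lists are predictions, and the miRNAs themselves were not measured in the data analysed here.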

How the data were processed

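RNA-Seq data of BEAS-2B, A549 and HCC827 were analysed, grouped by the cell line of the labels, with 1 library per line. The authors deposited FPKM for mRNAs. According to the paper's methods, reads were trimmed with PEAT, aligned with STAR 2.5.3a and quantified by Cufflinks 2.2.1 on the GENCODE 21 annotation, although the same methods name the mouse build mm10. The submitters' processing notes give hg19 as the build and also name FastQC 0.11.7, sleuth and kallisto, with no role for each. The authors deposited TPM for circRNAs, and the program behind these is not given in the sources used here. How the floor of 1 FPKM arose is not stated. The RNA extraction reagent differs between the labels (Trizol) and the paper's methods (RNeasy). The deposited fold changes are the authors' own comparisons and were not used, nor were the network files.

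Of 20635 mRNA names, those that occurred more than once (117) or had turned into numbers (28) were left out, which left 20494. Differences were taken on log2(FPKM + 1) or log2(TPM + 1), which understates the change of low genes, and ratios without a pseudocount. A gene was compared where it was above 1 FPKM in at least 1 line of a pair, a circRNA where it was above 5 TPM, and 2-fold counted as higher or lower. No test was possible with 1 library per line, and depth is unknown, so no counting interval is given. In bulk RNA, fewer cells with a transcript and less of it per cell cannot be told apart.

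The members and lists were chosen with earlier results of these data known. Named are all 10 members, up to 5 genes of each list with the largest difference past 2-fold, the 3 nearest usable genes on each side of a member where either passed 2-fold (of these, all that passed 2-fold themselves and some others are named, and the rest are only counted), and up to 5 circRNAs of each member. E2F6, E2F8, ZBTB17, MYC and CDKN1C were named after their values were seen, and 1 gene of the lists that met the rule is not reported here. RefSeq tables on GRCh38.p14 gave gene order, promoter windows and miRNA sequences. The miRNA that a list header calls miR942-p was read as hsa-miR-942-5p after the paper. The alternatives were other pseudocounts, filters, scaling by the median of ratios, and larger folds. The scripts (Python 3.11.15, pandas 2.3.3, numpy 2.4.6) were tested on simulated data.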

Additional observations from a re-analysis of the deposited data

How the results depend on the processing

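No paired analysis was possible because each line has 1 library, and for the same reason no library could be left out. Of 75 alternative counts of genes or circRNAs past a threshold, 58 stayed within 1.5 times the count given and 17 did not. Of 187 alternative differences of single G1 regulators, 175 kept their call, 12 did not and 0 changed direction while called. Only the scaling could change a direction, since pseudocounts, filters and larger folds keep the sign of a difference. The filters also leave each difference and its call as they are, so part of the 175 was fixed in advance. With a pseudocount of 5 FPKM the G1 regulators past 2-fold between A549 and HCC827 fell from 5 to 2, with CCNE2 at 0.64, CDK6 at 0.98 and CDKN2B at 0.59 on the log2 scale, and CDK6 in HCC827 against BEAS-2B came to 0.83. The genes of the 6 lists past 2-fold then numbered 10 in place of 18 in A549 against BEAS-2B, 17 in place of 26 in HCC827 against BEAS-2B and 5 in place of 9 between the tumour lines. With no pseudocount, and with 0.1 FPKM, the last of these was 14. At 4-fold, 1 of 5 G1 regulators remained in HCC827 against BEAS-2B and 2 of 5 between the tumour lines, and the list genes numbered 2, 5 and 4. Where both lines had to be above the floor, an alternative chosen after seeing the data, 3 of the 5 remained between the tumour lines. At 5-fold, 4 circRNAs differed between A549 and BEAS-2B, in place of 15. With both lines above 5 TPM, only 3 circRNAs could be compared between HCC827 and either other line. Of these, 2 differed against BEAS-2B, in place of 16, and 1 against A549, in place of 15. Above 10 TPM, the circRNAs numbered 10 in BEAS-2B and 10 in A549, in place of 16 in each. The lower counts at larger folds and stricter minimums follow from fewer features passing them, the cause of the other changes was not tested, and the unknown depth sets no limit that can be stated.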
